A study of Mus musculus with 2 samples.

Results

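Nuclei of type 2A muscle fibres that also hold transcripts of Myoz2 and Sox2ot numbered 235 of the 16530 nuclei of a single-nucleus RNA sequencing study of mouse calf muscle. A nucleus was taken as Myh2-led where it held 5 or more UMIs (unique molecular identifiers, each standing for 1 captured RNA molecule) over Myh2, Myh1, Myh4 and Myh7, which encode the heavy chains of adult muscle myosin, with Myh2 strictly the highest and Myh1 under 20% of the sum. Of the Myh2-led nuclei, those with 2 or more UMIs summed over Myoz2 and Sox2ot are called Myoz2/Sox2ot-high here. They numbered 141 of 312 Myh2-led nuclei and 9156 nuclei in plantaris, and 94 of 131 Myh2-led nuclei and 7374 nuclei in gastrocnemius. The remaining 171 Myh2-led nuclei of plantaris and 37 of gastrocnemius, with a sum below 2, were the comparison within each muscle. The values of Myoz2, Sox2ot and the 4 Myh genes chose the nuclei, so their levels are given as a description only.

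Both muscles came from wild-type C57BL/6 mice aged 12 weeks, with no treatment, and each muscle gave 1 library, so muscle, animal and library cannot be told apart. No difference below has a replicate check and no test between groups was run. Levels are UMIs summed over the nuclei of a group and given as CPM, the UMIs of a gene scaled to a common total of UMIs per group, and intervals in parentheses are at 95% and cover counting error only. UMIs were not scaled to gene length, so levels are compared between groups and not between genes.

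Type 2A fibres are the fast oxidative fibres of limb muscle, defined by the heavy chain that Myh2 encodes, and they stand between slow fibres, which use Myh7, and the faster types, which use Myh1 or Myh4. Myoz2 encodes calsarcin-1, a Z-disc protein that binds calcineurin and is known from slow fibres and heart, while its relative Myoz1 encodes the fast-fibre calsarcin. Sox2ot is a long noncoding RNA whose locus surrounds the transcription factor gene Sox2, and Ankrd2 encodes a stretch-responsive ankyrin repeat protein known for its high level in slow muscle.

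The Myoz2/Sox2ot-high nuclei had a median of 3755 UMIs in plantaris and 3165 in gastrocnemius, against 3171 and 1851 UMIs in the other Myh2-led nuclei of these muscles, so the Myoz2/Sox2ot-high nuclei were the deeper ones. When nuclei were thinned to 1000 UMIs and those with fewer left out, Myoz2 was found in 59.7% (51.1 to 67.9) of 139 Myoz2/Sox2ot-high and 14.9% (9.87 to 21.2) of 168 other Myh2-led nuclei of plantaris, against 92.2% and 29.2% unthinned. Nuclei with 2 or more UMIs of Myoz2 and Sox2ot made up 0.822% of Myh4-led and 2.20% of mesenchymal nuclei in plantaris, and 0.409% and 1.31% in gastrocnemius. The share was 8.02% among Myh1-led nuclei of plantaris and 10.6% among those of gastrocnemius. It reached 20 of 22 Myh7-led nuclei, 90.9% (70.8 to 98.9), in gastrocnemius. The Myh7-led nuclei had medians of 3427 UMIs in gastrocnemius and 1424 UMIs in plantaris, where they numbered only 4.

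Myonuclear genes stood high in both groups. The list of 10 myonuclear markers, which includes the giant sarcomere proteins Ttn and Neb, reached 69334 CPM in Myoz2/Sox2ot-high and 71667 CPM in other Myh2-led nuclei of plantaris, and 75333 and 81891 CPM in gastrocnemius. Macrophage markers were uneven in gastrocnemius, with 2 UMIs in the 94 Myoz2/Sox2ot-high nuclei, where 7 of 8 markers were at 0, and 39 UMIs in the 37 other Myh2-led nuclei, 6.41 and 500.04 CPM. Nuclei with 3 or more macrophage UMIs numbered 0 and 2 in these groups, and the highest single nucleus held 30. Mesenchymal markers were at 48.1 CPM in Myoz2/Sox2ot-high and 410.3 CPM in other Myh2-led nuclei of gastrocnemius, and at 202.9 and 262.3 CPM in plantaris. The part of these nuclei in the differences below was not tested. Values without nuclei of 3 or more other-type marker UMIs, with the pericyte list not counted because both groups held it at like levels (354.2 and 315.8 CPM in plantaris, 301.2 and 346.2 CPM in gastrocnemius), are given below for some genes, an alternative chosen after seeing the data. The libraries shared 17 barcodes, 1 of them on a Myh2-led nucleus.

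Around the threshold the groups met without a gap. In plantaris 111 Myh2-led nuclei held 0 and 60 held 1 UMI of Myoz2 and Sox2ot, while 41 held 2 and 26 held 3. In gastrocnemius the same numbers were 29, 8, 21 and 16. Among Myoz2/Sox2ot-high nuclei the median was 4 such UMIs in plantaris and 5 in gastrocnemius, with maxima of 29 and 47.

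**Figure D1:**
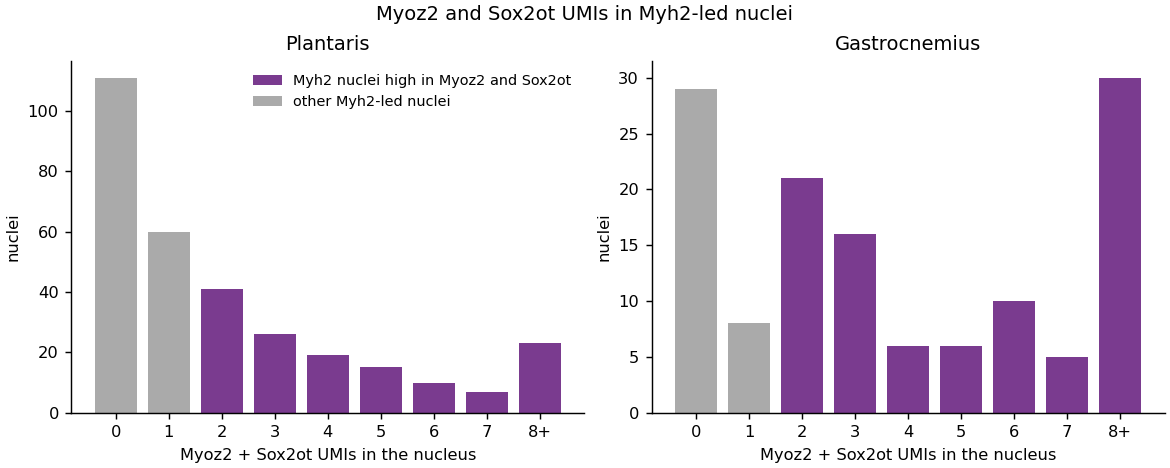
Number of Myh2-led nuclei (vertical axis) by the UMIs of Myoz2 and Sox2ot that each held (horizontal axis), in plantaris (left) and gastrocnemius (right), on separate scales. Purple bars are Myoz2/Sox2ot-high nuclei and grey bars the other Myh2-led nuclei. Plantaris counts decline from 111 nuclei with 0 UMIs, whereas gastrocnemius holds 30 nuclei with 8 or more UMIs beside 29 with 0.

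Myoz2/Sox2ot-high nuclei made up 45.2% (39.6 to 50.9) of Myh2-led nuclei in plantaris and 71.8% (63.2 to 79.3) in gastrocnemius. These intervals cover counting error only, and with 1 library per muscle the difference has no replicate check. Of all nuclei they were 1.54% in plantaris and 1.27% in gastrocnemius. Most carried Myoz2, which was found in 92.2% of those in plantaris and 87.2% in gastrocnemius. Sox2ot was found in 34.0% and 57.4%, and both genes in 26.2% (19.2 to 34.3) and 44.7% (34.4 to 55.3). Myoz2 was at 788.4 CPM in Myoz2/Sox2ot-high and 86.3 CPM in other Myh2-led nuclei of plantaris, and at 1160.1 and 76.9 CPM in gastrocnemius. Sox2ot was at 462.7 and 17.3 CPM in plantaris, and at 1134 and 25.6 CPM in gastrocnemius.

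The heavy chains did not set Myoz2/Sox2ot-high nuclei apart from the other Myh2-led nuclei by a slow myosin. Myh2 supplied 83.4% of their Myh UMIs in plantaris and 86.4% in gastrocnemius. The slow heavy chain Myh7 supplied 0 of 2677 Myh UMIs in plantaris, with an upper bound of 0.138%, and 2 of 1684 in gastrocnemius. Myh4 supplied 4.97% (4.18 to 5.86) of Myh UMIs in Myoz2/Sox2ot-high and 7.04% (6.09 to 8.10) in other Myh2-led nuclei of plantaris, and 6.24% (5.13 to 7.5) and 10.2% (7.53 to 13.5) in gastrocnemius. Myh1 ran the other way in plantaris, with 11.6% (10.4 to 12.9) in Myoz2/Sox2ot-high and 8.63% (7.58 to 9.78) in other Myh2-led nuclei, while in gastrocnemius it supplied 7.24% (6.05 to 8.59) and 9.07% (6.53 to 12.2). These shares were among the values that chose the nuclei.

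Each of the pair could be read in nuclei chosen by the other alone. Myh2-led nuclei with 2 or more Myoz2 UMIs held Sox2ot at 312.3 CPM and those with fewer at 180.3 CPM in plantaris, a log2 ratio of 0.79 (0.44 to 1.15). In gastrocnemius the values were 997.6 and 731.4 CPM, a log2 ratio of 0.45 (0.10 to 0.81). Chosen by Sox2ot, the log2 ratio of Myoz2 was 0.38 (0.01 to 0.74) in plantaris and 0.14 (−0.17 to 0.45) in gastrocnemius. The pair therefore ran together by less than 2-fold in either muscle, and in gastrocnemius the interval for Myoz2 included 0. Among Myoz2/Sox2ot-high nuclei of plantaris, 93 held Myoz2 without Sox2ot, 11 Sox2ot without Myoz2 and 37 both, and in gastrocnemius 40, 12 and 42.

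The label also names Ankrd2, which the choice did not use. It was at 288.3 CPM in Myoz2/Sox2ot-high and 196.7 CPM in other Myh2-led nuclei of plantaris, a log2 ratio of 0.55 (0.20 to 0.91). In gastrocnemius it was at 967.8 and 820.6 CPM, a log2 ratio of 0.24 (−0.16 to 0.65). Neither ratio reached 2-fold, and with Sox2ot alone choosing the nuclei the gastrocnemius ratio was −0.16 (−0.47 to 0.15). Choosing by Sox2ot alone puts nuclei that hold Myoz2 without Sox2ot into the comparison group. Myh4-led nuclei held Ankrd2 at 8.22 CPM in plantaris and 14.6 CPM in gastrocnemius. Myh1-led nuclei held it at 58.3 CPM in plantaris but at 677.4 CPM in gastrocnemius, so in gastrocnemius a high level was shared with the nearest faster type.

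Several genes that went with the Myoz2/Sox2ot-high nuclei lie at loci that carry microRNAs or are noncoding themselves, and their sequences are shown for that reason. Gm28653 is a long noncoding RNA at chr1:20669882-20684298 on the plus strand (mm10, GENCODE M21) that spans the muscle microRNAs miR-206 and miR-133b. Rmst is one at chr10:92071037-92165170 on the minus strand, and it spans miR-135a and miR-1251. The table counts the long transcripts, and the microRNAs themselves were not measured. Their main mature forms, from RefSeq on GRCm38.p6, read as follows, with the seed (bases 2 to 8) in capitals.
mmu-miR-206-3p, chr1:20679055-20679076, plus strand: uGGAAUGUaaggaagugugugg
mmu-miR-133b-3p, chr1:20682834-20682855, plus strand: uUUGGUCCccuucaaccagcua
mmu-miR-135a-5p, chr10:92072141-92072163, minus strand: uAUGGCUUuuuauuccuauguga
mmu-miR-1251-5p, chr10:92137190-92137210, minus strand: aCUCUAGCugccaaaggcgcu
The 4 seeds differ from each other.

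The promoters of Myoz2, which helped choose the nuclei, and of Gm20757, the noncoding neighbour of Rmst, are shown because motifs of muscle regulators were found in them. Gm20757 lies at chr10:92171301-92375373 on the same strand as Rmst and starts upstream of it, with 6130 bases between the annotated genes, so reads beyond an annotated end cannot be assigned to either with certainty. Each promoter runs from 250 bases before to 50 bases after the RefSeq start site and is given 5′ to 3′ on the gene's strand. Capitals mark the E-box CANNTG, which myogenic bHLH factors bind and which reads the same on both strands, the MEF2 motif searched on both strands, and GGAATG on either strand, which TEAD factors bind.
Myoz2 promoter, chr3:123034938-123035237, minus strand: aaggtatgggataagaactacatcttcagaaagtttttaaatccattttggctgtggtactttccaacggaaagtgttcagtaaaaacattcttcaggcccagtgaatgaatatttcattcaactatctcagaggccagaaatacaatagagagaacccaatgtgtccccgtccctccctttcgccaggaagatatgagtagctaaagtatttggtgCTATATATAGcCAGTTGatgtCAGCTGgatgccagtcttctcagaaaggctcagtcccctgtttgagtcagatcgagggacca
Gm20757 promoter, chr10:92375324-92375623, minus strand: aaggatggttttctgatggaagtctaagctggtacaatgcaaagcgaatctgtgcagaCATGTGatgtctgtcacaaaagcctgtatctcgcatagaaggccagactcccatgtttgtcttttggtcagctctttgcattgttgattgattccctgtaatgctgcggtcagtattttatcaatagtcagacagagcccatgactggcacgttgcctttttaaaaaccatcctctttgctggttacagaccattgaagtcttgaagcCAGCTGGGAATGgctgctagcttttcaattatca
The Myoz2 promoter holds 1 MEF2 match that begins 33 bases before the start site and 2 E-boxes that begin 22 and 12 bases before it, none overlapping. MEF2 matches occur in 0.557% of the 32851 promoters of this length and E-boxes in 72.3%. The Gm20757 promoter holds 2 E-boxes, the second of which abuts a GGAATG that begins 22 bases after the start site. GGAATG occurs in 14.7% of promoters. These matches are descriptions of sequence, and binding was not measured.

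The main question was which other genes differ between Myoz2/Sox2ot-high and other Myh2-led nuclei of the same muscle. A gene was called where its CPM differed by 2-fold or more and the counting interval left out no difference, among genes with 20 or more UMIs in both groups together and without the genes of the rule. In plantaris 110 of 5511 genes (2%) were called higher and 81 (1.47%) lower, together 3.47%. In gastrocnemius 95 of 2896 genes (3.28%) were called higher and 60 (2.07%) lower, together 5.35%. The median log2 ratio over all genes was 0.0095 in plantaris and 0.070 in gastrocnemius.

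Of the 2885 genes that could be called in both muscles, 8 (0.277%) were called higher in both, 1 (0.0347%) lower in both and 0 in opposite directions. The 8 were Rmst, Gm20757, Gm28653, Pcp4l1, Fam129a, Stox2, Nkain2 and Ccdc85a, and the gene lower in both was Kctd16. Ccdc85a fell outside the rule for naming genes and is named because it completes the count. None of the 9 remained called in both muscles when nuclei were thinned to 1000 UMIs, where the log2 ratios of the 8 ran from 0.44 to 2.86 in plantaris and from 0.65 to 2.11 in gastrocnemius, and Kctd16 had −2.31 and −2.06. In gastrocnemius the thinned ratios of Pcp4l1, Stox2 and Ccdc85a stand against 0 UMIs, set to a floor of 3 counts over the group. Since the libraries hold different nuclei, a call in both is a repeat in a second muscle, though not a replicate of either.

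Of the 8, 3 are noncoding RNAs. Rmst held 69 UMIs in Myoz2/Sox2ot-high and 17 in other Myh2-led nuclei of plantaris, 122.8 and 29.3 CPM, 4.19-fold higher (log2 2.07, 1.28 to 2.92). In gastrocnemius it held 48 and 1 UMIs, 153.8 and 12.8 CPM, a log2 ratio of 3.58 (1.04 to 8.92). Its neighbour Gm20757 was at 254.5 and 100.1 CPM in plantaris (log2 1.35, 0.90 to 1.81), and at 349.3 and 115.4 CPM in gastrocnemius (log2 1.60, 0.62 to 2.76). Gm28653, the host of miR-206 and miR-133b, was at 220.7 and 100.1 CPM in plantaris (log2 1.14, 0.68 to 1.62). It was at 1279 and 359.0 CPM in gastrocnemius (log2 1.83, 1.28 to 2.44). All 3 noncoding RNAs were therefore higher in Myoz2/Sox2ot-high nuclei of both muscles. Gm28653 rested in part on few nuclei: 1 Myoz2/Sox2ot-high nucleus of gastrocnemius held 62 of its 399 UMIs. Its direction turned when Sox2ot alone chose the nuclei, with a log2 ratio of −0.43 (−0.74 to −0.14) in gastrocnemius. The comparison group then takes in the nuclei with Myoz2 alone, which held Gm28653 at 1361 CPM in gastrocnemius.

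The protein-coding genes higher in both muscles have unlike known roles. Pcp4l1, a small IQ-motif protein related to the calmodulin-binding Pcp4, was at 58.7 CPM in Myoz2/Sox2ot-high and 6.90 CPM in other Myh2-led nuclei of plantaris (log2 3.09, 1.60 to 5.05). In gastrocnemius it was at 217.9 and 38.5 CPM, on 68 and 3 UMIs (log2 2.50, 0.89 to 4.82). Fam129a, now called Niban1, a stress-response protein, was at 89.0 and 25.9 CPM in plantaris (log2 1.78, 0.93 to 2.72), and at 407.0 and 141.0 CPM in gastrocnemius (log2 1.53, 0.64 to 2.57). Mesenchymal nuclei also held Fam129a, at 357.6 CPM in plantaris and 334.2 CPM in gastrocnemius. Without nuclei of 3 or more other-type marker UMIs, its log2 ratio was 3.23 in plantaris and 1.14 in gastrocnemius.

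Stox2, a winged-helix protein, was at 179.7 and 88.0 CPM in plantaris (log2 1.03, 0.53 to 1.55), and held 53 and 2 UMIs in gastrocnemius (log2 2.73, 0.80 to 5.81). Its gastrocnemius ratio was 0.02 with Sox2ot alone choosing the nuclei, which puts those with Myoz2 alone into the comparison group. Without nuclei of 3 or more other-type marker UMIs it had 0.90 in plantaris, under 2-fold, and 2.93 in gastrocnemius, and mesenchymal nuclei held it at 166.7 CPM in plantaris and 181.8 CPM in gastrocnemius. Nkain2, a membrane protein gene, was at 142.4 and 29.3 CPM in plantaris (log2 2.28, 1.51 to 3.13), and held 29 and 1 UMIs in gastrocnemius (log2 2.86, 0.27 to 8.21). A single Myoz2/Sox2ot-high nucleus of plantaris held 22 of its 80 UMIs. Without nuclei of 3 or more other-type marker UMIs its log2 ratio was 2.67 in plantaris. In gastrocnemius the other Myh2-led nuclei then held 0 UMIs, for a log2 ratio of 0.58 against the floor of 3 counts. Ccdc85a was at 610.4 and 243.4 CPM in plantaris (log2 1.33, 1.04 to 1.62), and at 176.3 and 64.1 CPM in gastrocnemius (log2 1.46, 0.15 to 3.14). Without the same nuclei it had 1.32 and 0.81, the second not called. Rmst and Pcp4l1 were found in a minority of nuclei. In plantaris Rmst was found in 24.8% of Myoz2/Sox2ot-high and 7.02% of other Myh2-led nuclei, and Pcp4l1 in 12.8% and 2.34%. In gastrocnemius the shares were 22.3% and 2.70% for Rmst and 27.7% and 8.11% for Pcp4l1. Gm28653 was found there in 57.4% and 35.1%.

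Kctd16, known in neurons as an auxiliary subunit of GABA-B receptors, was the gene lower in both muscles. It held 21 UMIs in Myoz2/Sox2ot-high and 78 in other Myh2-led nuclei of plantaris, 37.4 and 134.6 CPM (log2 −1.85, −2.62 to −1.14). In gastrocnemius it held 21 and 16 UMIs, 67.3 and 205.1 CPM (log2 −1.61, −2.62 to −0.57). A single other Myh2-led nucleus of gastrocnemius held 7 of the 16 UMIs. Without nuclei of 3 or more other-type marker UMIs, the log2 ratio of Kctd16 was −1.79 in plantaris and −0.92 in gastrocnemius, where it no longer reached 2-fold.

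**Figure D2:**
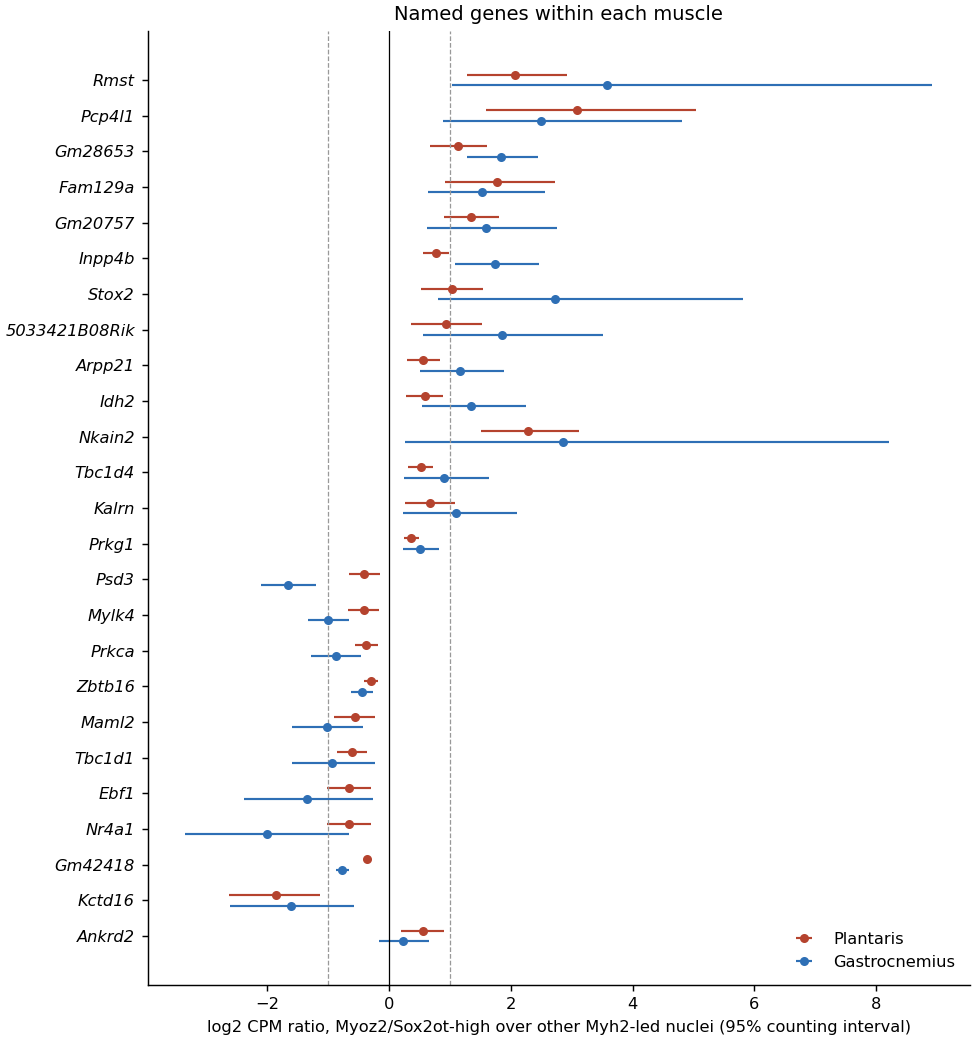
Log2 ratio of CPM in Myoz2/Sox2ot-high over other Myh2-led nuclei (horizontal axis) for the 14 highest and 10 lowest named genes and Ankrd2, in plantaris (red) and gastrocnemius (blue). Bars are 95% counting intervals and dashed lines mark 2-fold. Rmst, Pcp4l1 and Nkain2 lie furthest to the right and Kctd16 is past 2-fold to the left in both muscles, while Ankrd2 stays inside 2-fold.

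The other 7 genes of the 14 highest differed by less than 2-fold in plantaris. Inpp4b, a lipid phosphatase of the phosphoinositide pathway, was at 875.6 CPM in Myoz2/Sox2ot-high and 514.3 CPM in other Myh2-led nuclei of plantaris (log2 0.77, 0.56 to 0.98). In gastrocnemius it was at 852.4 and 256.4 CPM (log2 1.73, 1.08 to 2.47), where it was called. Idh2, the mitochondrial NADP-dependent isocitrate dehydrogenase, was at 402.2 and 267.5 CPM in plantaris (log2 0.59, 0.29 to 0.89) and at 455.0 and 179.5 CPM in gastrocnemius (log2 1.34, 0.55 to 2.25). The RNA-binding protein gene Arpp21 had log2 ratios of 0.56 in plantaris and 1.16 in gastrocnemius. The guanine nucleotide exchange factor gene Kalrn had 0.67 and 1.10, and the cGMP-dependent kinase gene Prkg1 had 0.37 and 0.52. The noncoding 5033421B08Rik, annotated as antisense to another gene and so of uncertain assignment, had 0.93 and 1.85.

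The paralogs Tbc1d4 and Tbc1d1 ran in opposite directions. Both encode Rab GTPase-activating proteins that hold back the glucose transporter GLUT4, and in mouse muscle Tbc1d4 is known from oxidative and Tbc1d1 from glycolytic fibres. Tbc1d4 was at 820.4 CPM in Myoz2/Sox2ot-high and 571.3 CPM in other Myh2-led nuclei of plantaris (log2 0.52, 0.32 to 0.73), and at 506.3 and 269.3 CPM in gastrocnemius (log2 0.91, 0.25 to 1.64). Tbc1d1 was at 402.2 and 611.0 CPM in plantaris (log2 −0.60, −0.85 to −0.36), and at 195.5 and 371.8 CPM in gastrocnemius (log2 −0.93, −1.59 to −0.24). Neither reached 2-fold in either muscle. In gastrocnemius 1 other Myh2-led nucleus held 11 of the 29 Tbc1d1 UMIs of its group. The gene was found there in 33.0% of Myoz2/Sox2ot-high and 29.7% of other Myh2-led nuclei. Tbc1d1 stood at 994.3 CPM in Myh1-led nuclei of plantaris and 1102 CPM in those of gastrocnemius, above both kinds of Myh2-led nucleus.

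Among the other lower genes, the nuclear receptor gene Nr4a1 was at 190.4 CPM in Myoz2/Sox2ot-high and 298.6 CPM in other Myh2-led nuclei of plantaris (log2 −0.65, −1.01 to −0.29). In gastrocnemius it held 11 UMIs in each group, 35.3 and 141.0 CPM (log2 −2.0, −3.35 to −0.65). The Arf exchange factor gene Psd3 had log2 ratios of −0.40 in plantaris and −1.65 in gastrocnemius, or −1.26 there without nuclei of 3 or more other-type marker UMIs. Mylk4, a myosin light chain kinase family gene whose level was highest in Myh4-led nuclei, had −0.41 and −1.0. The Notch coactivator gene Maml2 had −0.56 and −1.02, and the kinase gene Prkca had −0.37 and −0.87. Ebf1, a transcription factor gene at 3811 CPM in mesenchymal nuclei of plantaris, had −0.65 and −1.35. Single other Myh2-led nuclei held 42 of its 170 UMIs in plantaris and 7 of 14 in gastrocnemius. Ebf1 was found in 21.3% of Myoz2/Sox2ot-high and 20.5% of other Myh2-led nuclei of plantaris. The zinc finger factor gene Zbtb16 had −0.30 and −0.45. Gm42418, a locus that overlaps ribosomal RNA sequence, was at 9051 and 11596 CPM in plantaris and at 8441 and 14322 CPM in gastrocnemius (log2 −0.36 and −0.76). Mitochondrial genes, a measure of RNA outside the nucleus, held 0.00997% of UMIs in Myoz2/Sox2ot-high and 0.0133% in other Myh2-led nuclei of plantaris, and 0.00737% and 0.0141% in gastrocnemius. These shares rest on few UMIs, as the 2 groups of gastrocnemius held 312056 and 77994 UMIs of all genes.

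The slow sarcomere list held few called genes, and its level came mostly from Actn2 and Mybpc1, which fast fibres also express. Of the 16 genes on the slow sarcomere list, 8 could be called in plantaris, where 2 were higher (the background was 2% of all genes) and 0 lower, with a median log2 ratio of 0.37 beside 0.0095 over all genes. In gastrocnemius 6 could be called, 1 was higher and 0 lower, with a median of 0.80 beside 0.070. The list summed to 11260 CPM in Myoz2/Sox2ot-high and 10172 CPM in other Myh2-led nuclei of plantaris, and to 10370 and 9770 CPM in gastrocnemius. The Z-disc actinin gene Actn2 was at 5611 and 5205 CPM in plantaris, and Mybpc1, of slow-type myosin-binding protein C, at 4725 and 4325 CPM. Other slow genes were at low levels. The slow ventricular-type light chain Myl2 held 26 and 12 UMIs in Myoz2/Sox2ot-high and other Myh2-led nuclei of plantaris, 46.3 and 20.7 CPM (log2 1.16). The slow calcium pump Atp2a2 was at 71.2 and 27.6 CPM there (log2 1.37), and in gastrocnemius at 67.3 and 25.6 CPM on 21 and 2 UMIs (log2 1.39), which was not called. In plantaris 1 Myoz2/Sox2ot-high nucleus held 12 of the 40 Atp2a2 UMIs, and the gene was found in 9.22% of Myoz2/Sox2ot-high and 8.19% of other Myh2-led nuclei. Smpx, a small muscle protein, was called higher in gastrocnemius at 365.3 and 153.9 CPM (log2 1.25).

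These levels were small beside those of Myh7-led nuclei. In Myh7-led nuclei of gastrocnemius Atp2a2 was at 5513 CPM and Myl2 at 918.9 CPM, against 67.3 and 64.1 CPM in the Myoz2/Sox2ot-high nuclei. The slow troponins followed: Tnnc1 was at 0 UMIs in the Myoz2/Sox2ot-high nuclei of both muscles, and Tnnt1 held 2 UMIs in plantaris and 1 in gastrocnemius. Tnnc1 stood at 593.7 CPM and Tnnt1 at 735.1 CPM in Myh7-led nuclei of gastrocnemius.

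Some other genes were nearer to the Myh7-led level, and others were not. The 22 Myh7-led nuclei of gastrocnemius held Myoz2 at 1583 CPM, Sox2ot at 1640 CPM and Ankrd2 at 989.6 CPM, beside 1160.1, 1134 and 967.8 CPM in the 94 Myoz2/Sox2ot-high nuclei. Myoz2 and Sox2ot chose the Myoz2/Sox2ot-high nuclei, so their nearness is a description only. Ankrd2 did not reach 2-fold over other Myh2-led nuclei, so its level was not particular to the Myoz2/Sox2ot-high nuclei. For genes outside the rule the log2 ratio of Myoz2/Sox2ot-high over Myh7-led nuclei was 0.44 (−0.65 to 1.74) for Rmst, −0.017 (−0.42 to 0.41) for Inpp4b and −0.64 (−1.11 to −0.14) for Idh2. It was −1.05 (−1.68 to −0.40) for Pcp4l1 and −0.93 (−1.19 to −0.66) for Gm28653. Fam129a was at 0 UMIs in the Myh7-led nuclei of gastrocnemius and at 407.0 CPM in the Myoz2/Sox2ot-high nuclei. Kalrn and Arpp21 were also above the Myh7-led level, with log2 ratios of 3.55 (1.66 to 6.61) and 1.71 (0.90 to 2.65). Kalrn held 2 UMIs in the Myh7-led nuclei. Tbc1d1 was above that level too, at 195.5 CPM in Myoz2/Sox2ot-high and 42.4 CPM in Myh7-led nuclei, on 61 and 3 UMIs. The Myh4-led nuclei held Rmst at 0.737 CPM, Gm28653 at 6.90 CPM and Inpp4b at 37.1 CPM in gastrocnemius.

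**Figure D3:**
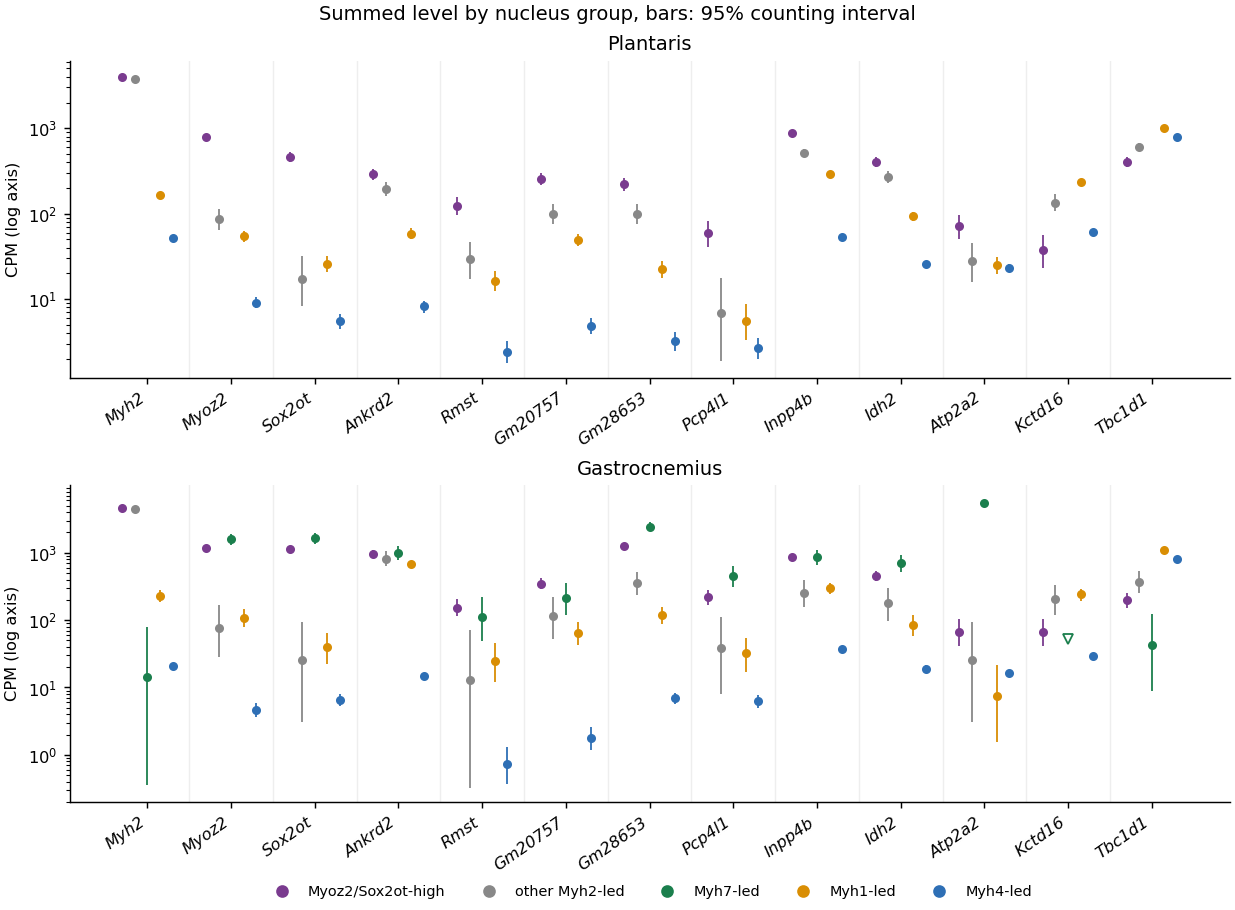
CPM on a log axis for 13 genes in Myoz2/Sox2ot-high, other Myh2-led, Myh7-led, Myh1-led and Myh4-led nuclei of plantaris (top) and gastrocnemius (bottom), with 95% counting intervals. The open triangle marks the upper limit for a gene with 0 UMIs, and Myh7-led nuclei of plantaris, which number 4, are not drawn. In gastrocnemius the purple and green points lie near each other for Rmst and Inpp4b but far apart for Atp2a2.

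Of the fast contractile genes, 1 was called. Of 15 genes on the fast sarcomere list, 13 could be called in plantaris, where 0 were higher and 0 lower by 2-fold, with a median log2 ratio of −0.19. In gastrocnemius 11 could be called, 0 were higher and 1 lower (the background was 2.07%), with a median of −0.16. The lower gene was the M-band protein gene Myom2, at 144.2 CPM in Myoz2/Sox2ot-high and 320.5 CPM in other Myh2-led nuclei (log2 −1.15). The fast troponin gene Tnnt3 was at 996.6 and 1068 CPM in plantaris and at 1086 and 1141 CPM in gastrocnemius. Myoz1, the fast calsarcin, had a log2 ratio of −0.47 in plantaris and −0.79 in gastrocnemius, neither called. On the list of calsarcins and calcineurin genes, 0 of 11 in plantaris and 0 of 8 in gastrocnemius were higher and 1 and 0 were lower. The lower one was Cabin1, a calcineurin inhibitor, with 9 and 24 UMIs in plantaris (log2 −1.37).

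Few metabolic genes were called. Over all genes 2% were higher and 1.47% lower in plantaris and 3.28% higher and 2.07% lower in gastrocnemius, with medians of 0.0095 and 0.070. For fatty acid uptake and oxidation, 0 of 22 genes were called in plantaris, with a median log2 ratio of −0.09, and 2 of 19 were higher and 0 lower in gastrocnemius, with a median of 0.49. The called genes were Etfdh, of electron transfer from fatty acid oxidation, at 211.5 and 76.9 CPM (log2 1.46), and Decr1, a dienoyl-CoA reductase of mitochondria, with 27 and 1 UMIs (log2 2.75). For ketone, lactate and pyruvate use, 1 of 15 was higher and 1 lower in plantaris, and 1 of 11 higher and 0 lower in gastrocnemius, with medians of 0.16 and 0.35. The ketone enzyme gene Bdh1 was at 110.3 and 51.8 CPM in plantaris (log2 1.09), and had a log2 ratio of 1.64 in gastrocnemius on 25 and 2 UMIs, which was not called. In gastrocnemius the called gene was Got1, an aspartate aminotransferase, at 227.5 and 89.8 CPM. The lower gene in plantaris was the lactate transporter gene Slc16a1, with 5 and 20 UMIs (log2 −1.96). For the citrate cycle and respiratory chain, 0 of 25 were called in plantaris and 1 of 19, Idh2, in gastrocnemius, with medians of 0.04 and 0.20. For glycolysis and glycogen, 0 of 18 and 0 of 15 were higher and 0 and 1 lower, the lower one being Pfkfb3, with medians of −0.06 and −0.27. A difference between the muscles in these medians was not tested.

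The list of oxidative regulators had 0 called of 17 genes in plantaris and 0 of 13 in gastrocnemius. Esrrg, an oestrogen-related receptor that drives oxidative genes, was at 4632 and 4249 CPM in plantaris and at 8082 and 6231 CPM in gastrocnemius (log2 0.12 and 0.38). The slow and oxidative transcription factors had 0 called of 7 and 0 of 6. Calcium handling genes had 0 called of 20 and 0 of 16. Of the insulin and glucose uptake list, 0 of 13 genes were called in plantaris and 1 of 11 in gastrocnemius, the insulin receptor adaptor Grb14, with 33 and 1 UMIs (log2 3.04). Stretch and Z-disc response genes had 0 called of 17 and 0 of 13.

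The remaining lists held few measured genes, so that 1 call is a large share of each beside the 2% and 1.47% of all genes higher and lower in plantaris and 3.28% and 2.07% in gastrocnemius. Of the long noncoding RNAs, 1 of 9, Rmst, was higher and 1, Rian, lower in plantaris, and 1 of 5, Rmst, higher in gastrocnemius. Of the NR4A and early genes, 0 of 3 were called in plantaris and 1 of 1, Nr4a1, was lower in gastrocnemius. Atrophy and denervation genes had 0 called of 6 and 0 of 4. Of the polyamine and amino acid list, 0 of 4 were higher and 1, Smox, was lower in plantaris, and 0 of 1 was called in gastrocnemius.

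Within the Myh2-led nuclei, several levels differed in steps with the UMIs of Myoz2 and Sox2ot. Rmst, Inpp4b, Idh2 and Tbc1d1 were named for their ratios across the threshold in these same nuclei. Their steps are therefore a description and not separate from those ratios. Rmst was at 16.5, 51.0, 49.9, 140.4 and 258.4 CPM in plantaris nuclei with 0, 1, 2 or 3, 4 to 7 and 8 or more such UMIs. Inpp4b was at 483.6, 566.1, 669.6, 928.3 and 1252 CPM across the same steps, and Idh2 at 250.1, 297.0, 345.2, 389.4 and 566.4 CPM. Tbc1d1 ran the other way, at 629.3, 580.0, 503.3, 362.2 and 248.4 CPM. Ankrd2 was at 164.9, 250.6, 299.5, 253.6 and 337.9 CPM, lowest in the first step and highest in the last but lower in the fourth than in the third. The median nucleus of these steps held 2834, 3477, 3373, 4045 and 4254 UMIs, so depth went with the steps, although CPM are relative to it. In gastrocnemius Inpp4b was at 238.2, 332.9, 563.8, 936.1 and 1007 CPM, and Tbc1d1 at 444.6, 66.6, 365.4, 206.7 and 67.2 CPM, where the second step rests on 8 nuclei.

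**Figure D4:**
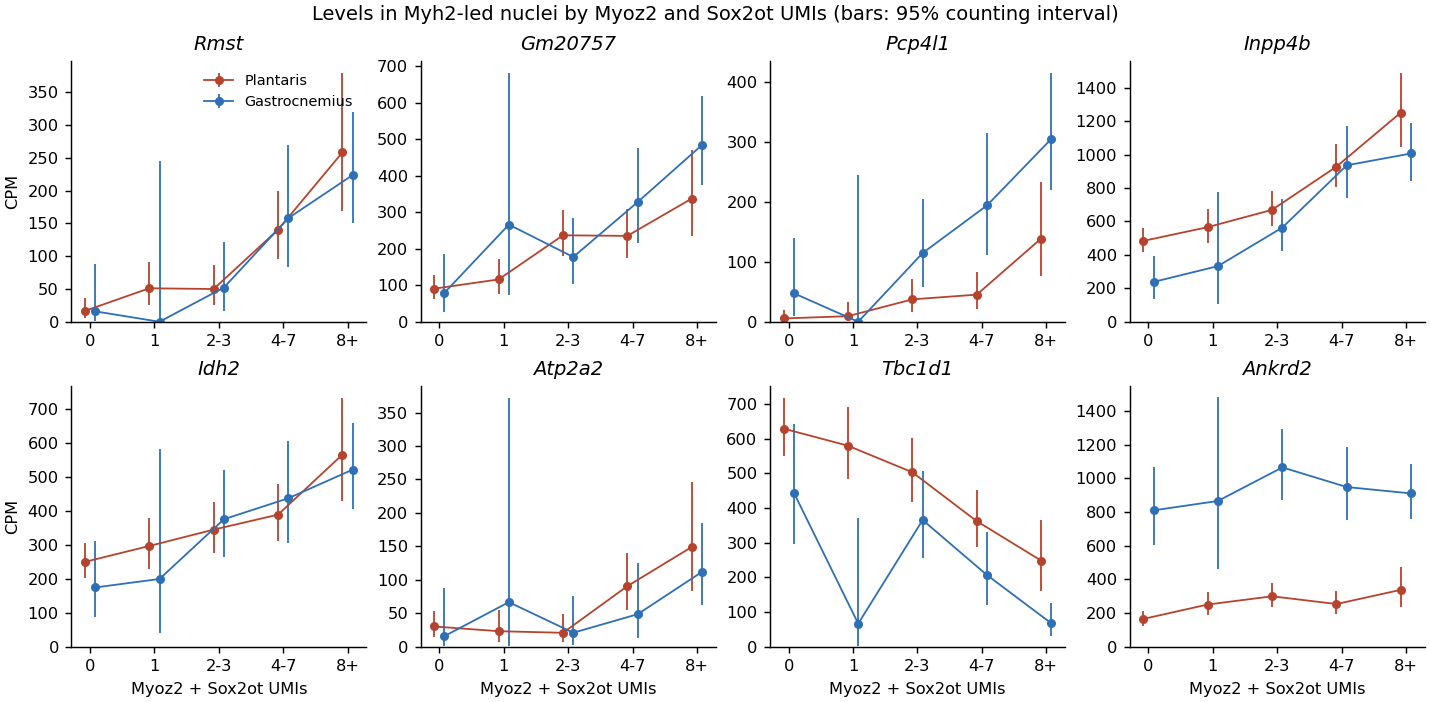
CPM of 8 genes (vertical axes, each from 0) in Myh2-led nuclei grouped by their UMIs of Myoz2 and Sox2ot (horizontal axis), in plantaris (red) and gastrocnemius (blue), with 95% counting intervals. Inpp4b and Idh2 are higher in each next group of plantaris nuclei and Tbc1d1 is lower, while Ankrd2 is lower in the fourth group of plantaris nuclei than in the third.

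Levels of several genes differed between nuclei that held both Myoz2 and Sox2ot and those with Myoz2 alone. The split uses the same UMIs as the steps above, so it is not separate from them. Rmst was at 282.4 CPM (205.2 to 379.1) in the nuclei of plantaris with both and 60.6 CPM (38.4 to 90.9) in those with Myoz2 alone. In gastrocnemius it was at 248.7 CPM (176.0 to 341.4) and 65.5 CPM (29.9 to 124.3). Gm20757 showed the same order, at 462.1 and 160.7 CPM in plantaris and 569.4 and 152.8 CPM in gastrocnemius. Inpp4b was at 1271 and 724.4 CPM in plantaris, and at 1021 and 611.3 CPM in gastrocnemius. Tbc1d1 was at 147.6 CPM (93.6 to 221.5) with both and 508.4 CPM (439.2 to 585.4) with Myoz2 alone in plantaris, and at 98.2 and 305.6 CPM in gastrocnemius. Gm28653 did not follow this order in gastrocnemius, at 1224 CPM (1055 to 1412) with both and 1361 CPM (1173 to 1570) with Myoz2 alone. Nor did Ankrd2 there, at 831.2 and 1099 CPM, Pcp4l1, at 189.8 and 218.3 CPM, or Stox2, at 150.5 and 203.8 CPM. In nuclei with Sox2ot alone Rmst was at 75.6 CPM in plantaris and 45.8 CPM in gastrocnemius, on 2 and 1 UMIs. Nuclei with both had a median of 4007 UMIs in plantaris and 3719 UMIs in gastrocnemius, and nuclei with Myoz2 alone 3886 and 3165 UMIs.

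The second comparison asked how the Myoz2/Sox2ot-high nuclei of plantaris differ from those of gastrocnemius. Of 4815 genes, 279 (5.79%) were called higher in plantaris and 166 (3.45%) lower, together 9.24%. In the other Myh2-led nuclei 103 of 4056 genes (2.54%) were called higher in plantaris and 127 (3.13%) lower, together 5.67%. The 8 genes named for the highest ratios were Nr4a3, Irs2, Pdlim1, Egln3, Plcl1, Ror1, Dhrs3 and Fam155a.

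Irs2, an insulin receptor substrate, was at 562.4 CPM in Myoz2/Sox2ot-high nuclei of plantaris and 67.3 CPM in those of gastrocnemius (log2 3.06, 2.43 to 3.78). Its log2 ratio was 3.99 in the other Myh2-led nuclei, where gastrocnemius held 3 UMIs, all in 1 nucleus. Egln3, an oxygen-dependent prolyl hydroxylase, was at 444.9 and 57.7 CPM (log2 2.95, 2.26 to 3.73), with 3.67 in the others, on 2 UMIs in gastrocnemius. Nr4a3, a nuclear receptor of the early response, held 73 UMIs in plantaris and 0 in gastrocnemius, 13.5-fold higher against the floor of 3 counts over the group. Its relative Nr4a1 had a log2 ratio of 2.43 (1.54 to 3.48), with 1.08 in the others. Pdlim1, a PDZ-LIM protein of the cytoskeleton, was at 656.7 and 86.5 CPM (log2 2.92, 2.36 to 3.55) and had 1.39 (0.56 to 2.37) in the others. Plcl1, a phospholipase C-like protein, had 2.73 and Dhrs3, a retinal reductase, 2.94, with 1.49 and 2.37 in the others. The other Myh2-led nuclei of gastrocnemius held 2 Dhrs3 UMIs.

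Ror1, a receptor for Wnt5a, held 27 and 0 UMIs and Fam155a, of the NALCN channel complex, 25 and 0 UMIs. Against the same floor both were higher in plantaris, with log2 ratios of 2.32 for Ror1 and 2.21 for Fam155a. These values rest on few nuclei: 1 held 16 of the 25 Fam155a UMIs, and 3 of the 141 Myoz2/Sox2ot-high nuclei of plantaris had any. In nuclei thinned to 1000 UMIs the values were 0.14 for Ror1 and 0.40 for Fam155a. Without nuclei of 3 or more other-type marker UMIs they were 0.33 and 1.75. Mesenchymal nuclei held Fam155a too, at 119.1 CPM in plantaris, and mesenchymal markers were higher in the Myoz2/Sox2ot-high nuclei of plantaris (202.9 CPM) than in those of gastrocnemius (48.1 CPM). Their part in these ratios was not tested.

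The 8 genes named for the lowest ratios were Gm28653, Pdk4, Gm29506, Mamdc2, Gm30173, Slc40a1, Fam129a and D630024D03Rik. Gm28653 was at 220.7 CPM in Myoz2/Sox2ot-high nuclei of plantaris and 1279 CPM in those of gastrocnemius (log2 −2.53, −2.84 to −2.24), with −1.84 in the other Myh2-led nuclei. Pdk4, the kinase that shuts off pyruvate dehydrogenase, was at 240.3 and 1279 CPM (log2 −2.41, −2.70 to −2.13), with −1.93 in the others. Fam129a was at 89.0 and 407.0 CPM (log2 −2.19, −2.70 to −1.71), with −2.45 in the others. Slc40a1, the iron exporter ferroportin, held 6 and 28 UMIs (log2 −3.07), and Mamdc2, a secreted protein with MAM domains, 14 and 52 UMIs (log2 −2.74). The noncoding RNAs Gm29506, D630024D03Rik and Gm30173 had −2.50, −2.52 and −3.37. Mamdc2 was also higher in Myoz2/Sox2ot-high than in other Myh2-led nuclei of gastrocnemius, where it held 52 and 0 UMIs, 4.33-fold against the floor.

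Of the genes described within the muscles, some differed between muscles and others did not. Ankrd2, not called within either muscle, was lower in plantaris by a log2 ratio of −1.75 (−2.03 to −1.47), with −2.06 in the other Myh2-led nuclei. Pcp4l1 was lower by −1.89 (−2.54 to −1.27). Rmst had −0.32 (−0.88 to 0.24), Inpp4b 0.04 (−0.18 to 0.26), Stox2 0.08 (−0.41 to 0.59) and Idh2 −0.18 (−0.49 to 0.14), and none of these was called. Of the fixed lists, insulin and glucose uptake had 4 of 13 genes higher (background 5.79%) and 0 lower in plantaris, namely Irs1, Irs2, Socs2 and Tbc1d1, with a median log2 ratio of 0.57 beside −0.011 over all genes. Fatty acid uptake and oxidation had 0 of 20 higher and 5 lower (background 3.45%), namely Cd36, Fabp3, Acadl, Etfdh and Mlycd, with a median of −0.51. The fatty acid transporter gene Cd36 was at 1162 and 2464 CPM (log2 −1.08).

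**Figure D5:**
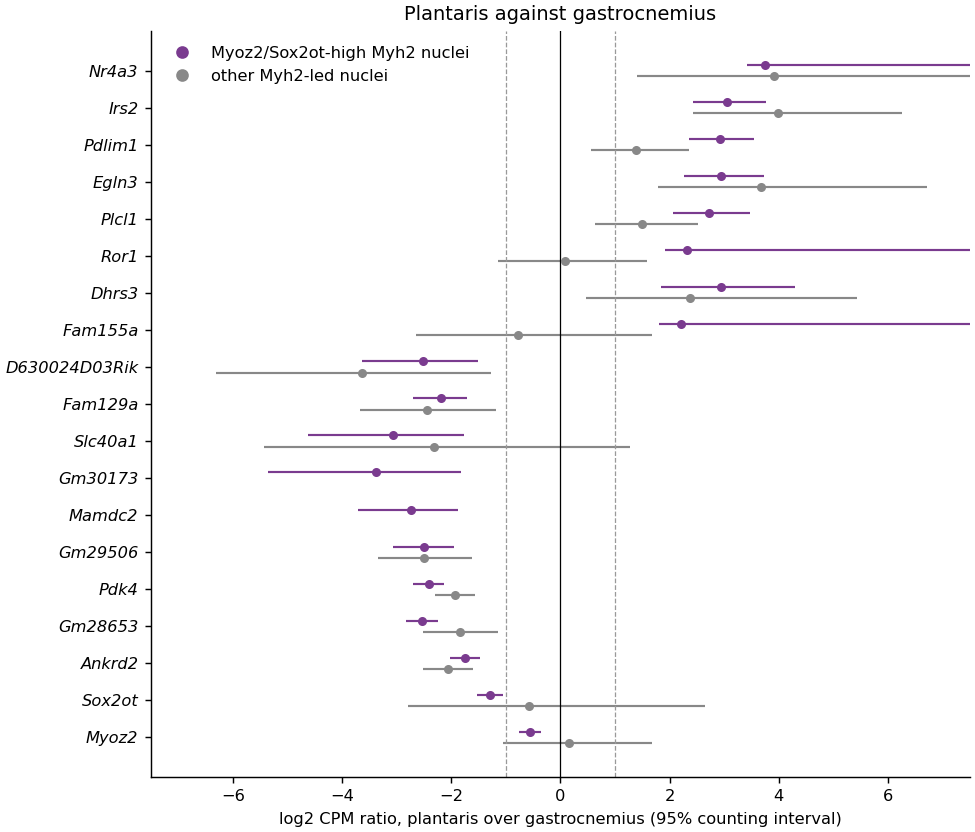
Log2 ratio of CPM in plantaris over gastrocnemius (horizontal axis) for the 8 highest and 8 lowest named genes, Ankrd2, Sox2ot and Myoz2, in Myoz2/Sox2ot-high nuclei (purple) and other Myh2-led nuclei (grey), with 95% counting intervals and dashed lines at 2-fold. Intervals that reach the right edge are open because gastrocnemius held 0 UMIs (Nr4a3 in the others runs past the edge), and a ratio with 3 or fewer UMIs against 0 is not drawn. Irs2, Egln3, Pdk4 and Gm28653 lie on the same side in both kinds of nucleus.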

How the data were processed

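Nuclei of plantaris and gastrocnemius were stained with propidium iodide, sorted and made into 10x Chromium 3' v3.1 libraries, per the labels. Cell Ranger 6.0.1 and the build mm10 are named in the submitters' processing notes, while the sources used here do not give the annotation or how nuclei were called. The authors deposited a table of UMI counts for 32285 genes in 16530 nuclei, 29248275 UMIs in plantaris and 19048595 in gastrocnemius, and a table of each barcode's library.

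No further filter on nuclei was applied and no doublet caller was run; nuclei with high totals or other-type markers were left out as alternatives. Counts were summed per group and library (Python 3.11.15, scipy 1.17.1) and given as CPM with exact Poisson intervals, ratios with exact conditional binomial intervals and shares with Clopper-Pearson intervals, at 95%. These cover counting error only, as nuclei are not replicates. Where a group held 0 UMIs, 3 counts over the group served as the floor, and no ratio was formed where the other count was 3 or less. A ratio against the floor is not a bound, as its interval reaches nearer to no difference. The ratio was tested on simulated data.

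Genes were named by the interval bound nearest to 0, of the muscle with the smaller bound: 14 highest and 10 lowest within muscles, 8 and 8 between them, genes of the fixed lists, and Ankrd2. Mesenchymal nuclei are those with 10 or more UMIs of mesenchymal markers. The members and lists were chosen with earlier results of these data known. The results of 2 lists are not reported here. Alternatives to the threshold, depth, scaling and filters are given in the closing section.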

Additional observations from a re-analysis of the deposited data

Results flagged for a closer look

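A few genes differed in opposite directions between the libraries, with counting intervals that left out 0 on both sides; the difference was not tested, and with 1 library per muscle it has no replicate check. Over other Myh2-led nuclei, Flnc, an actin cross-linker of the Z-disc, was higher in Myoz2/Sox2ot-high nuclei of plantaris (log2 0.38) and lower in those of gastrocnemius (−0.93). Nrap, of actin assembly at muscle ends, had 0.25 in plantaris and −0.39 in gastrocnemius. The nuclear RNA Malat1 had −0.02 and 0.16. For plantaris over gastrocnemius, Gm42418 had a log2 ratio of 0.10 in Myoz2/Sox2ot-high nuclei and −0.30 in other Myh2-led nuclei. The collagen gene Col1a2, a mesenchymal marker, had 2.15 and −1.72 in these groups. The first is a ratio against the floor, as Myoz2/Sox2ot-high nuclei of gastrocnemius held 0 Col1a2 UMIs. In the other Myh2-led nuclei of gastrocnemius, 1 nucleus held 16 of the 32 mesenchymal marker UMIs.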

How the results depend on the processing

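No paired analysis was possible because each muscle has 1 library and no label ties a plantaris to a gastrocnemius of 1 mouse. Counting error, the small number of other Myh2-led nuclei in gastrocnemius and the lack of replicates limit every value.

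The share of Myoz2/Sox2ot-high nuclei was 38.1% in plantaris and 55.7% in gastrocnemius when Myoz2 alone chose them, and 11.9% and 36.6% when Sox2ot alone did. It stayed within its counting interval under the other alternatives, and was higher in gastrocnemius under all of those run. The 191 genes called in plantaris and 155 in gastrocnemius became 79 and 44 in nuclei thinned to 1000 UMIs, 51 and 74 with 50 or more UMIs per gene, and 325 and 296 with 1 or more. Thinning also left out nuclei under 1000 UMIs, and the cut-offs per gene changed which genes could be called. Averaging CPM computed nucleus by nucleus, 239 genes were called in gastrocnemius. The 445 genes called between the muscles became 163, 202 and, with Sox2ot alone choosing, 239. The causes of these changes were not tested.

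Of the 9 genes called in both muscles, 9 remained so at 4 or more UMIs against 0, 6 with own CPM averaged, 5 with 50 or more UMIs per gene, 4 with Myoz2 alone, 3 with Sox2ot alone and 0 after thinning. Without nuclei of 3 or more other-type marker UMIs, 4 remained and Ccdc85a, Kctd16, Nkain2, Pcp4l1 and Stox2 did not. With the pericyte list not counted, chosen after seeing the data, 5 remained, Pcp4l1 among them. With Sox2ot alone, Gm28653 turned to a log2 ratio of −0.43 and the median of the slow sarcomere list to −0.020, both in gastrocnemius. In that setting the comparison group takes in the nuclei with Myoz2 alone. Ratios that were not called also changed sign, with −0.16 for Ankrd2 in gastrocnemius with Sox2ot alone, and in plantaris 0.02 for Mylk4 without nuclei of other-type markers and 0.04 for Gm42418 with nuclei chosen from thinned counts.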
